A study of Mus musculus with 15 samples.

Results

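The expression of 10 genes of neutrophils and of the chemokines that draw them into tissue was followed through kidney and lung of mice treated with a leptin-neutralizing antibody. The genes were given as a list of symbols. They were the chemokine ligands *Cxcl1*, *Cxcl2* and *Cxcl5*, their receptor *Cxcr2*, the calprotectin subunits *S100a8* and *S100a9*, the surface receptors *Trem1* and *Csf3r*, the secreted protein *Retnlg* and the stefin-like gene *Cstdc4*. All 10 were found by symbol among the 56748 genes of the table.

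Neutrophils leave the blood along gradients of CXC chemokines that carry a glutamate-leucine-arginine (ELR) motif, and Cxcr2 is the receptor for these ligands on mouse neutrophils. The ligands are made by injured epithelium, macrophages, endothelium and neutrophils themselves, whereas S100a8 and S100a9 are among the most abundant proteins of the neutrophil cytosol. Csf3r binds granulocyte colony-stimulating factor, which drives neutrophil production, Trem1 amplifies inflammatory signaling in neutrophils and monocytes, Retnlg (resistin-like gamma) is a secreted protein of granulocytes, and Cstdc4 belongs to the stefin A family of cysteine protease inhibitors.

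The RNA came from wild-type male C57BL/6 mice, with 3 libraries in each of 5 groups. WTK kidneys were from mice given vehicle in place of folic acid, and IgGK and LepK kidneys were from mice given folic acid at 200 mg/kg, a nephrotoxic dose, at 10 to 12 weeks of age and followed to day 28. IgGL and LepL lungs were from mice given bleomycin, an agent that injures the lung and leaves fibrosis, at 1.5 units/kg at 12 weeks of age and followed to day 14. In both organs the injured mice received 10 mg/kg of either control IgG (IgGK, IgGL) or LepAb, a monoclonal antibody that neutralizes leptin (LepK, LepL). Whether the WTK mice received an antibody is not given for these libraries. IgGK and WTK may therefore differ in IgG as well as in folic acid. No lung without bleomycin was analysed here, so levels in the lung have no uninjured reference. In such bulk tissue RNA, fewer cells of a type and less RNA per cell cannot be told apart.

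Total counts per library were 25913969 to 38924788, so 1 count corresponded to 0.0252 to 0.0415 CPM (a gene's count relative to the whole library, scaled by TMM factors within each organ). The library IgGL replicate 3 stood apart for the genes described here, with the highest level of its group in 9 of the 10 genes, the exception being *Cxcl1*. It also held 3102 CPM of the beta-globin gene *Hbb-bs*, where IgGL replicates 1 and 2 held 796 and 389 CPM and the 3 LepL libraries held 834, 946 and 1034 CPM. The part of blood in its high values was not tested, and the lung results are given below with and without it. The defining neutrophil marker *Ly6g* had a count of 0 in all WTK and IgGK libraries and reached 0.222 CPM in LepK, against 0.50 to 0.599 CPM in IgGL and 0 to 0.392 CPM in LepL. Thus the kidney libraries carried little or none of that marker, also where other genes of the set were high.

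*Cxcl1*, *Cxcl2* and *Cxcl5* lie close together on chromosome 5, at 91039100 to 91040974, 91051730 to 91053797 and 90907219 to 90909483 in the table (the submitters' processing notes name the build GRCm39). Promoter windows of 9 of the 10 genes were matched in RefSeq by symbol on another build, GRCm38.p6, and *Cxcl5* had none. The windows of *Cxcl1* (chr5:90890995-90891294, plus strand) and *Cxcl2* (chr5:90903649-90903948, plus strand) are shown because they were the only windows among the 9 that held the NF-kB-like letters GGNNTTTCC on either strand. Each window runs from 250 bases before to 50 bases after the transcription start, 5′ to 3′, with the matches in capitals:
Cxcl1: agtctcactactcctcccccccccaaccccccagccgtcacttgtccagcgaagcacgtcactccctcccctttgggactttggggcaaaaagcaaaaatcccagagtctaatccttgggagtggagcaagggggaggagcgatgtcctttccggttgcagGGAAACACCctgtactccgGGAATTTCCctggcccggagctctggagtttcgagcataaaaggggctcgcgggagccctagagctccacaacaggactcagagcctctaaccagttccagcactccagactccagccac
Cxcl2: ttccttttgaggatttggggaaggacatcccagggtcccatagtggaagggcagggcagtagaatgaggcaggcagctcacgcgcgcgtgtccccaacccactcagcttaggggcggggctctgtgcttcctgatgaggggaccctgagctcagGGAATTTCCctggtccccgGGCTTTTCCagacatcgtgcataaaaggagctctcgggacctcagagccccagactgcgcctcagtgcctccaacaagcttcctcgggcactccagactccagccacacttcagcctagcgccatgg
Each promoter held 2 matches, and 1 of them was the same string, GGAATTTCC, which began at position -70 in *Cxcl1* and at position -96 in *Cxcl2*. This string lay in a run of 14 identical bases (gGGAATTTCCctgg). Among 32851 mouse promoters of the same length, 5.82% held GGNNTTTCC. Of the other motifs searched on both strands, TATAAA was found in *S100a8* and *S100a9* (2 of 9 genes, 13.6% of all promoters), and neither the AP-1 letters TGANTCA (7.81% of all promoters) nor the C/EBP palindrome TTGCGCAA (0.183%) was found in any of the 9. No matches overlapped in these windows, and a match of letters is a description of the sequence and not a binding site.

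**Figure D1:**
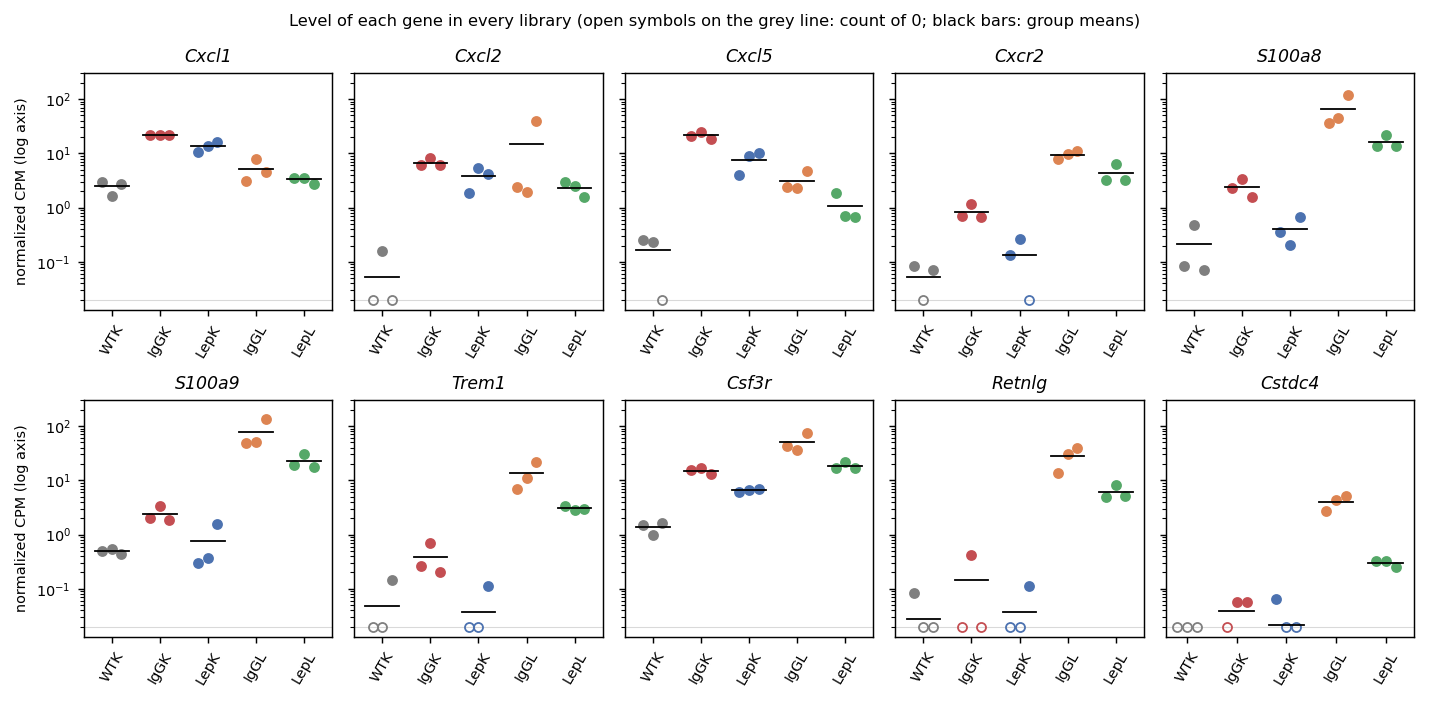
Normalized CPM (log axis) of the 10 genes in each of the 15 libraries, with open symbols for a count of 0 and black bars for group means. *Cxcl1* and *Cxcl5* were higher in each IgGK library than in any lung library, while *Cxcr2*, *S100a8*, *S100a9*, *Trem1*, *Csf3r*, *Retnlg* and *Cstdc4* were higher in each IgGL library than in any kidney library.

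The first question was how these genes differed between folic acid kidneys given IgG and vehicle kidneys. Of the 10 genes, 7 passed the filter on low counts in kidney, and all 7 were higher in IgGK than in WTK, where 21.7% of the 19593 genes tested were called higher (absolute log2 fold change over 0.5, adjusted p under 0.05). *Cxcl5*, an epithelial neutrophil attractant, was at 0.249, 0.237 and 0 CPM in the WTK libraries and at 20.8, 25.1 and 18.6 CPM in IgGK (log2 fold change 7.07 ± 0.51 (SE), adjusted p = 2.76e-07). *Cxcl2* was at 0, 0.158 and 0 CPM in WTK, 4 counts in all, and at 6.13, 8.20 and 5.98 CPM in IgGK (6.91 ± 0.67, adjusted p = 2.79e-06). Both ligands thus went from near the counting limit to several CPM in each injured kidney. *Cxcl1* had a measurable level without injury, 2.99, 1.62 and 2.78 CPM, and rose to 21.7, 21.4 and 21.8 CPM (3.13 ± 0.21, adjusted p = 1.73e-07). The 3 IgGK libraries differed little from each other in *Cxcl1*, at 21.6 ± 0.21 CPM (SD, n = 3).

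*Csf3r* was at 1.50, 0.987 and 1.62 CPM in WTK and rose to 15.3, 17.2 and 12.8 CPM in IgGK (log2 fold change 3.46 ± 0.20, adjusted p = 7.05e-08). The chemokine receptor *Cxcr2* was at 0.0831, 0 and 0.0721 CPM in WTK and 0.693, 1.17 and 0.665 CPM in IgGK (3.92 ± 0.95, adjusted p = 0.00377). Thus the receptor for the induced ligands rose but stayed near or below 1 CPM. *S100a8* was at 0.0831, 0.474 and 0.0721 CPM in WTK and rose to 2.28, 3.32 and 1.59 CPM in IgGK (3.49 ± 0.66, adjusted p = 0.000648). Its partner *S100a9* rose from 0.498, 0.553 and 0.433 to 2.01, 3.37 and 1.85 CPM (2.28 ± 0.58, adjusted p = 0.00485). In none of the 7 genes did the IgGK and WTK libraries overlap, and 32.5% of all genes tested were separated with IgGK higher. IgGK replicate 2 was the highest of its group in 8 of the 10 genes. Genes near 0 in WTK could pass the filter only through the injured groups, so the count of 7 of 7 is a description.

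*Trem1*, *Retnlg* and *Cstdc4* were too low in kidney to pass the filter. *Trem1* had 0, 0 and 4 counts in WTK, 8, 24 and 7 in IgGK and 0, 0 and 3 in LepK. *Retnlg* had 15 counts in IgGK replicate 2 and none in the other IgGK libraries, and *Cstdc4* had at most 2 counts in any kidney library. With the filter removed, none of the 3 was called in any kidney comparison, and the nearest was *Trem1* in IgGK against WTK (log2 fold change 2.85 ± 1.25, adjusted p = 0.0716).

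The second question was whether neutralizing leptin after folic acid changed these levels. All 7 tested genes were lower in every LepK library than in every IgGK library, as were 19.5% of all genes tested. Of the 7, 6 were called lower, where 5.99% of all genes were. *Cxcr2* had at most 8 counts in a WTK or LepK library and passed the filter only through IgGK. The 7 of 7 and 6 of 7 are therefore descriptions. *Cxcl5* fell most clearly among the ligands, to 3.92, 9.12 and 9.97 CPM (log2 fold change -1.49 ± 0.32, adjusted p = 0.00611). *Cxcl1* fell to 10.5, 13.9 and 16.3 CPM (-0.67 ± 0.18, adjusted p = 0.020). *Cxcl2* was at 1.88, 5.33 and 4.10 CPM in LepK and was not called (-0.85 ± 0.40, adjusted p = 0.168). For all 3 ligands LepK replicate 1 was the lowest library.

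The neutrophil genes also fell. *S100a8* was at 0.362, 0.201 and 0.665 CPM in LepK (log2 fold change -2.55 ± 0.60, adjusted p = 0.0109), and *Cxcr2* was at 0.132, 0.268 and 0 CPM (-2.60 ± 0.82, adjusted p = 0.0410). *S100a9* was at 0.296, 0.369 and 1.59 CPM, with LepK replicate 3 close to the lowest IgGK library (-1.69 ± 0.55, adjusted p = 0.0464). *Csf3r* was at 5.99, 6.50 and 6.98 CPM (-1.22 ± 0.18, adjusted p = 0.000743). When any 1 of the 9 kidney libraries was left out, *Cxcl5* and *Csf3r* were called lower in all 9 fits, *S100a8* in 8, *Cxcl1* in 5, *Cxcr2* in 2 and *S100a9* in 1. The 6 calls dropped to 2 without IgGK replicate 2 and to 3 without IgGK replicate 1, IgGK replicate 3 or LepK replicate 1. *S100a9* was not called when only IgGK and LepK were fitted (adjusted p = 0.0770), and neither *S100a9* nor *Cxcl1* was called in a fit of all 15 libraries (adjusted p = 0.0593 and 0.130). DESeq2 called 5 of the 7 and gave no adjusted p for *Cxcr2*.

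**Figure D2:**
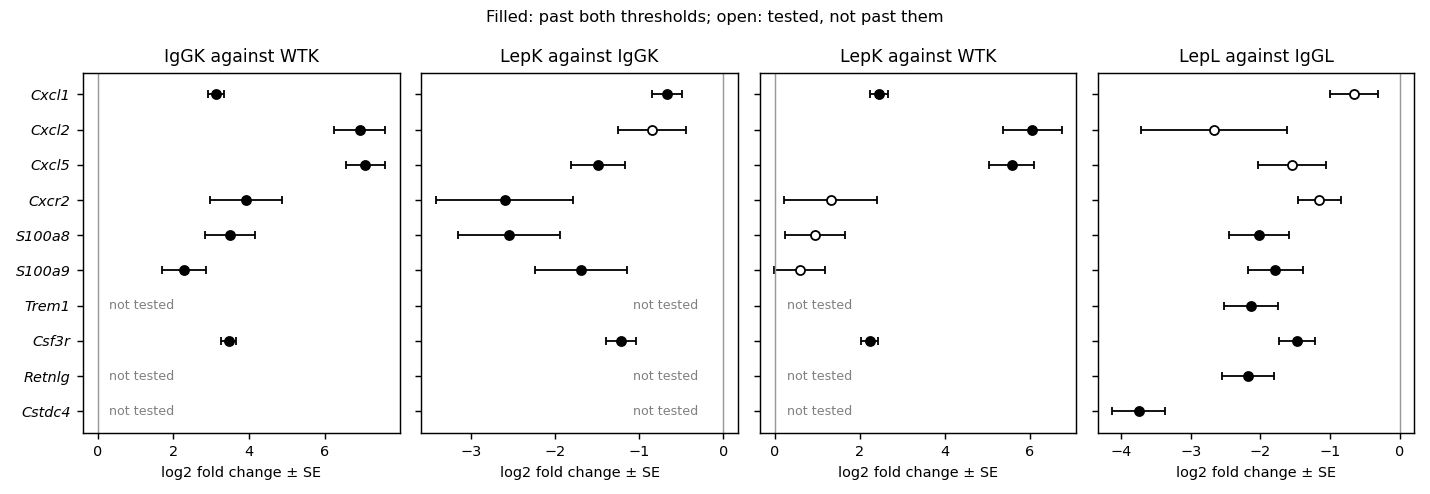
Log2 fold change with its standard error for each gene in the 4 comparisons, filled where it passed both thresholds and open where it was tested and did not. The 7 genes tested in IgGK against WTK lie between 2.28 and 7.07, and all tested genes lie below 0 in the antibody comparisons of kidney and lung.

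LepK was also set against WTK, to see how far the levels lay from those of uninjured kidney. Of the 7 tested genes 4 were still higher in LepK (15.2% of all genes tested were called higher), and these were the 3 ligands and *Csf3r*. This count too is a description, since genes near 0 in WTK passed the filter only through the injured groups. *Cxcl2* remained 6.07 ± 0.69 log2 units above WTK (adjusted p = 3.81e-05), *Cxcl5* 5.58 ± 0.53 (adjusted p = 1.22e-05), *Cxcl1* 2.46 ± 0.21 (adjusted p = 5.82e-06) and *Csf3r* 2.24 ± 0.20 (adjusted p = 8.95e-06). *Cxcr2*, *S100a8* and *S100a9* overlapped between LepK and WTK and were not called, with log2 fold changes of 1.32 ± 1.09 (adjusted p = 0.373), 0.95 ± 0.71 (adjusted p = 0.324) and 0.58 ± 0.60 (adjusted p = 0.478). These standard errors leave room for a remaining difference in each of the 3 genes.

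Expressed on the scale from the WTK mean to the IgGK mean, LepK kept 57.9% of the rise in *Cxcl1* (42.1 to 72.1% in single libraries), 55.3% in *Cxcl2* (27.1 to 78.5%), 37.3% in *Csf3r* (33.6 to 40.8%) and 35.2% in *Cxcl5* (17.6 to 45.9%). For *S100a8* it kept 9.14% (-0.391 to 20.8%) and for *Cxcr2* 10.3% (-6.54 to 27.4%). For *S100a9* it kept 13.4%, with a single library, LepK replicate 3, at 57.0%. *Cxcr2*, *S100a8* and *S100a9* thus lay nearer to the uninjured level on average than the 3 ligands and *Csf3r*. A difference between genes in this share was not tested, and the 3 kidney comparisons share their samples.

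**Figure D3:**
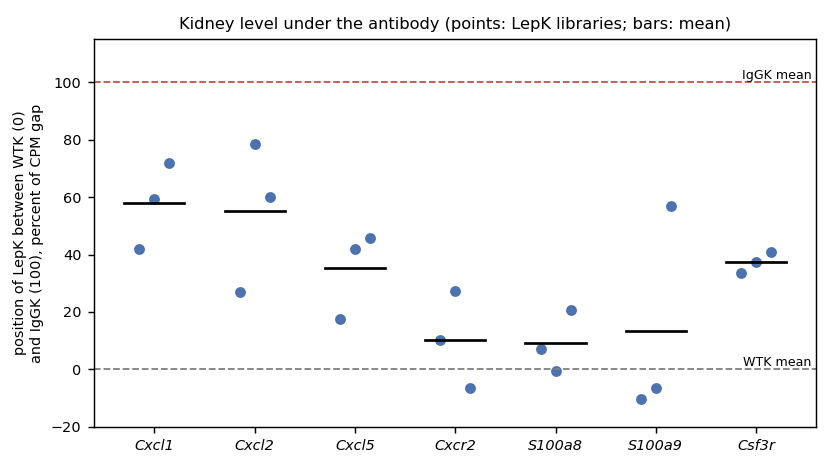
Level of the 7 tested genes in each LepK library, as a percentage of the CPM gap between the WTK mean (0) and the IgGK mean (100), with bars for the LepK means. *Cxcl1* and *Cxcl2* lie above 50 on average, *Cxcl5* and *Csf3r* between 35 and 38, and *Cxcr2*, *S100a8* and *S100a9* below 14.

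The third question was whether the antibody changed these genes in the bleomycin-injured lung. All 10 genes were tested there, all 10 had lower fitted levels in LepL than in IgGL, and 6 were called lower, where 2.36% of the 19617 genes tested were. In 8 of the 10 genes every LepL library lay below every IgGL library, as was the case for 17.3% of all genes tested. *Cstdc4* had 10, 11 and 10 counts in LepL, near the filter's minimum count of 10, so these numbers of genes are descriptions too. *Cstdc4* was at 2.74, 4.28 and 5.12 CPM in IgGL and at 0.327, 0.321 and 0.252 CPM in LepL (log2 fold change -3.74 ± 0.38, adjusted p = 0.0327). It had the furthest log2 fold change from 0 of the 10 genes in lung, and the LepL libraries were close together at 0.30 ± 0.042 CPM (SD, n = 3). *Cstdc4* shares 35.6% of the 50-base windows of its longest transcript with the related gene *Csta2* in GENCODE vM21, so reads of the pair can be confused. *Csta2* itself did not fall with it, at 0.111, 0.250 and 1.43 CPM in IgGL and 0.555, 1.20 and 0.982 CPM in LepL.

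*Retnlg* was at 13.8, 30.1 and 39.5 CPM in IgGL and fell to 4.86, 8.27 and 5.21 CPM in LepL (log2 fold change -2.18 ± 0.37, adjusted p = 0.0327). *Trem1* fell from 7.01, 11 and 22.1 CPM to 3.33, 2.80 and 3.0 CPM (-2.13 ± 0.39, adjusted p = 0.0337). A processed pseudogene on the opposite strand, *Gm18679*, overlaps *Trem1*, and had 34 counts over all libraries against 1678 for *Trem1*. *S100a8* fell from 37.0, 44.3 and 119.6 CPM to 13.5, 22.1 and 13.9 CPM (-2.02 ± 0.43, adjusted p = 0.0403). *S100a9* fell from 48.4, 50.5 and 133 CPM to 18.9, 30.2 and 17.8 CPM (-1.79 ± 0.39, adjusted p = 0.0442). In both calprotectin genes IgGL replicate 3 was more than 2 times the other IgGL libraries, which themselves lay above all LepL libraries. *Csf3r* fell from 42.4, 36.6 and 74.2 CPM to 16.7, 21.7 and 16.7 CPM (-1.47 ± 0.26, adjusted p = 0.0327). Of the 50-base windows of the longest *Csf3r* transcript 11.5% also occur in transcripts of other genes, and 6.77% of those of *Cxcr2* do.

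The chemokine receptor *Cxcr2* was at 7.87, 9.69 and 10.9 CPM in IgGL and 3.20, 6.4 and 3.17 CPM in LepL, without overlap but short of the threshold (log2 fold change -1.16 ± 0.31, adjusted p = 0.0617). None of the 3 ligands was called in lung. *Cxcl5* was at 2.41, 2.33 and 4.69 CPM in IgGL and 1.86, 0.701 and 0.680 CPM in LepL (-1.55 ± 0.49, adjusted p = 0.0893). *Cxcl1* was at 3.10, 8.0 and 4.52 CPM in IgGL and 3.56, 3.56 and 2.77 CPM in LepL, and the groups overlapped (-0.66 ± 0.35, adjusted p = 0.257). *Cxcl2* was at 2.35, 1.94 and 39.8 CPM in IgGL and 2.91, 2.45 and 1.59 CPM in LepL (-2.67 ± 1.05, adjusted p = 0.145). Its difference came from IgGL replicate 3, without which the log2 fold change was 0.10.

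Without IgGL replicate 3 none of the 6 lung calls was kept (adjusted p = 0.0528 to 0.0548), although the fold changes stayed negative, for instance -1.30 for *S100a8* (adjusted p = 0.0528) and -3.54 for *Cstdc4* (adjusted p = 0.0528). In that fit 4 genes were called among all genes tested, against 812 with all 6 libraries. Of the 11 genes of the lists described below that were called in lung, 0 were called without this library at an adjusted p under 0.05, and 11 kept their direction. The calls were likewise lost when IgGL replicate 2 was left out, or either of LepL replicates 2 and 3, and without LepL replicate 1 only *Cstdc4* was called. Without IgGL replicate 1, 9 of the 10 genes were called lower, the exception being *Cxcl1*. DESeq2 on all 6 libraries called 8 of the 10 genes lower and gave no adjusted p for *Cxcl2*. It also called more genes lower over all genes than edgeR did, as given below. The shares of all genes called in these other fits are not given here. The 9 and the 8 are therefore descriptions and cannot be read against the share of the main fit.

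**Figure D4:**
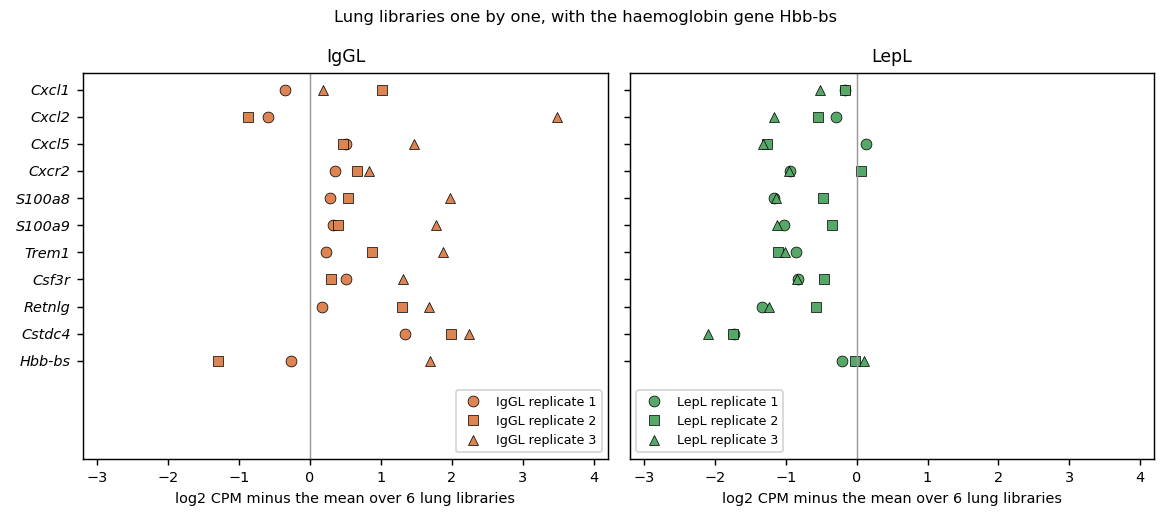
Log2 CPM of each gene in the 6 lung libraries, minus the mean over those 6, with IgGL left, LepL right and a symbol for each replicate, and with the beta-globin gene *Hbb-bs* in the bottom line. IgGL replicate 3 lies furthest right in 9 of the 10 genes and in *Hbb-bs*, and *Cxcl2* is high in that library alone.

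To compare the organs, the log2 change under the antibody in lung was subtracted from that in kidney, in a fit of all 12 libraries from injured organs. None of the 10 genes was called in this edgeR fit, none had an unadjusted p under 0.05, and DESeq2 also called none, whereas 3.51% of the 21488 genes tested were called higher and 3.62% lower. The differences ranged from -1.41 ± 0.75 for *Cxcr2* (adjusted p = 0.258) to 3.05 ± 1.57 for *Cstdc4* (adjusted p = 0.244), whose kidney counts were at most 2 in a library. For *Cxcl2* the difference was 1.85 ± 1.21 (adjusted p = 0.369), and it was -0.95 without IgGL replicate 3. For some genes the standard error was large beside the effects within each organ, such as *Retnlg* (0.21 ± 3.76). It was smaller for others, such as *Csf3r* (0.28 ± 0.32, beside -1.22 in kidney and -1.47 in lung). The fit does not show that the organs acted alike. Organ, injuring agent and day differed together and cannot be told apart.

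Per kilobase of the gene length given in the table, which allows genes to be set beside each other, the order of mean levels differed between the organs. In IgGK the ligands *Cxcl1* and *Cxcl5* led with 11.5 CPM per kilobase each, and their libraries overlapped. They were followed by *S100a9* at 4.62, *Csf3r* at 4.19, *S100a8* at 3.45 and *Cxcl2* at 3.28 CPM per kilobase, while *Cxcr2* at 0.277, *Retnlg* at 0.241, *Trem1* at 0.128 and *Cstdc4* at 0.0206 were at the bottom. The libraries of *S100a9*, *Csf3r*, *S100a8* and *Cxcl2* overlapped, so these neighbours did not differ beyond their spread. In IgGL the granulocyte genes *S100a9*, *S100a8* and *Retnlg* led with 148, 96.5 and 46.9 CPM per kilobase, followed by *Csf3r* at 14.1. Libraries of *S100a9* and *S100a8* overlapped, as did those of *S100a8* and *Retnlg*, but those of *Retnlg* and *Csf3r* did not. Within each single IgGL library, however, *S100a9* lay above *S100a8* and *S100a8* above *Retnlg*. *Cxcl2* was next at 7.11, by virtue of IgGL replicate 3, and *Trem1*, *Cxcr2*, *Cxcl1*, *Cstdc4* and *Cxcl5* lay between 4.47 and 1.69 CPM per kilobase. These lengths exceed those of the longest GENCODE vM21 transcript for some genes (1875 against 953 bases for *Cxcl1*, 1862 against 414 for *Cstdc4*). Per kilobase of that transcript, *Cxcl1* in IgGK was at 22.7 and *Cxcl5* at 13.7 CPM, without overlap, and *Cstdc4* in IgGL was at 9.77 CPM. Kidney and lung were scaled apart, and the difference in level between organs was not tested.

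Other genes of neutrophils and of the chemokine system were counted from lists. Among 10 neutrophil granule genes, 4 could be tested in kidney. In IgGK 3 of the 4 rose, where 21.7% of all genes were called higher. The list median was 2.45 against 0.04 over all genes, and the called genes ranged from *Mmp9* (gelatinase B) at 1.95 to *Lcn2* at 5.25. *Lcn2* (lipocalin 2), which injured tubules also make, was the only one of the 4 called lower in LepK, at -1.36 ± 0.15 (adjusted p = 0.000176). *Ltf* (lactoferrin) had the opposite sign to the other 3, at 1.21 ± 0.48, without being called (adjusted p = 0.102). All 4 were called higher in LepK against WTK, as were 15.2% of all genes, with *Ltf* at 1.41 ± 0.50 (adjusted p = 0.0410). In lung 7 were tested, 5 with negative and 2 with positive log2 fold changes, and the median was -0.19 against 0.00 over all genes. Only *Mmp8*, the neutrophil collagenase, was called lower in LepL, from 23.0, 28.2 and 34.0 CPM to 10.5, 14.3 and 6.52 CPM (-1.44 ± 0.27, adjusted p = 0.0354). *Lcn2* was at 353 to 648 CPM in IgGL and 432 to 594 CPM in LepL and was not called (0.01 ± 0.22, adjusted p = 0.983). The early-granule genes *Mpo* and *Elane* did not reach the filter in either organ.

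Of 10 neutrophil surface and related genes, 5 of the 7 tested rose in IgGK and 1 fell. Of all genes, 21.7% were called higher and 15.6% lower. Over the WTK libraries *Fpr1* had 2 counts, *Clec4d* 3 and *Il1r2* 7. These genes could pass the filter only through the injured groups, so the 5 of 7 is a description. *Clec4d*, a C-type lectin receptor of myeloid cells, had the highest log2 fold change at 6.69 ± 0.56 (adjusted p = 8.26e-07), and *Hdc*, the histamine-producing enzyme, the lowest at -0.82 ± 0.13 (adjusted p = 0.000193). In LepK 3 of the 7 fell, where 5.99% of all genes were called lower. They ranged from *Il1r2*, the decoy receptor for interleukin-1, at -2.29 ± 0.56 (adjusted p = 0.0124) to *Fpr2* at -1.92 ± 0.61 (adjusted p = 0.0415). *Hdc* rose by 0.78 ± 0.13 (adjusted p = 0.00189), where 4.38% of all genes were called higher. In lung all 10 were tested and 1 was called lower, as were 2.36% of all genes. This was *Cd177*, a neutrophil surface glycoprotein named here after its values were seen. It fell from 31.2, 42.0 and 112 CPM to 20.2, 17.1 and 13.6 CPM (-1.86 ± 0.43, adjusted p = 0.0471). *Il1r2* had a lower log2 fold change without being called (-2.92 ± 0.73, adjusted p = 0.0561).

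The stefin genes next to *Cstdc4* on chromosome 16 were absent or nearly so in kidney. Of the 8 listed, 7 were in the table and 2 could be tested in lung. *Stfa2l1* fell from 2.16, 5.42 and 4.89 CPM in IgGL to 0, 0.613 and 0.126 CPM in LepL (log2 fold change -4.05 ± 0.84, adjusted p = 0.0395). *Stfa1* was at -3.51 ± 0.90 and was not called (adjusted p = 0.0589), although its groups did not overlap. Shared 50-base windows were searched for *Cstdc4*, where they occurred in 1 other gene, *Csta2*. They were not searched for the other stefin genes, so sharing of reads among those was not examined.

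The remaining ELR chemokines did not move as a group. *Cxcl3*, whose transcript shares sequence with 3.37% of the 50-base windows of *Cxcl2*, had no count in WTK and was at 0.857, 1.09 and 0.607 CPM in IgGK, at least 21.9-fold higher than a floor of 3 counts over the WTK group. It fell in LepK to 0.132, 0.335 and 0.222 CPM (log2 fold change -1.87 ± 0.59, adjusted p = 0.0489). In lung *Cxcl3* was not called and its groups overlapped (log2 fold change -0.84 ± 0.67, adjusted p = 0.457). The other ligands of this list were higher in LepL than in IgGL, where 1.78% of all genes were called higher. *Cxcl15* (lungkine), a chemokine of the airway and alveolar epithelium, was at 1046, 651 and 595 CPM in IgGL and rose to 1661, 1442 and 1640.1 CPM in LepL (1.05 ± 0.21, adjusted p = 0.0391). *Ppbp*, the platelet basic protein, rose from 9.09, 5.61 and 6.68 CPM to 18.1, 19.1 and 24.1 CPM (1.52 ± 0.21, adjusted p = 0.0327). The kidney minus lung difference of *Ppbp* was -1.89 ± 0.48 (adjusted p = 0.0338).

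Among 9 CXC ligands without the ELR motif, which act on lymphocytes and monocytes rather than through Cxcr2, 6 rose in IgGK, where 21.7% of all genes were called higher. They ranged from *Cxcl9* at 1.50 ± 0.28 to *Cxcl17* at 5.15 ± 1.04. In LepK 2 were called lower (5.99% of all genes were), *Cxcl10* at -0.53 ± 0.14 (adjusted p = 0.0184) and *Cxcl16* at -0.55 ± 0.09 (adjusted p = 0.00118), both close to the fold threshold. In LepL only *Cxcl14* of the 8 tested was called, lower by -1.18 ± 0.20 (adjusted p = 0.0327). Among 13 partners and inducers of the 10 genes (ligands, adaptors, receptors and cytokines), all 12 tested rose in IgGK, where 21.7% of all genes were called higher. They ranged from the leukotriene enzyme *Alox5* at 1.18 ± 0.43 (adjusted p = 0.0342) to the endothelial chemokine-binding receptor *Ackr1* at 5.46 ± 0.72 (adjusted p = 3.64e-05). Over the WTK libraries *Ackr1* had 3 counts and *Csf3* 2. Both could pass the filter only through the injured groups, so the count of 12 is a description. In LepK 6 of the 12 fell (5.99% of all genes were called lower), from *Ackr1* at -1.63 ± 0.51 (adjusted p = 0.0392) to *Alox5ap* at -0.83 ± 0.23 (adjusted p = 0.0227). In LepL 2 fell, where 2.36% of all genes were called lower. These were *C5ar1*, the receptor for the attractant C5a, at -1.43 ± 0.17 (adjusted p = 0.0327) and *Alox5ap*, which supports leukotriene synthesis, at -0.89 ± 0.20 (adjusted p = 0.0461). *Csf3*, the ligand of Csf3r, was at 3.88 ± 1.10 in IgGK against WTK (adjusted p = 0.00974) and was called in neither antibody comparison.

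**Figure D5:**
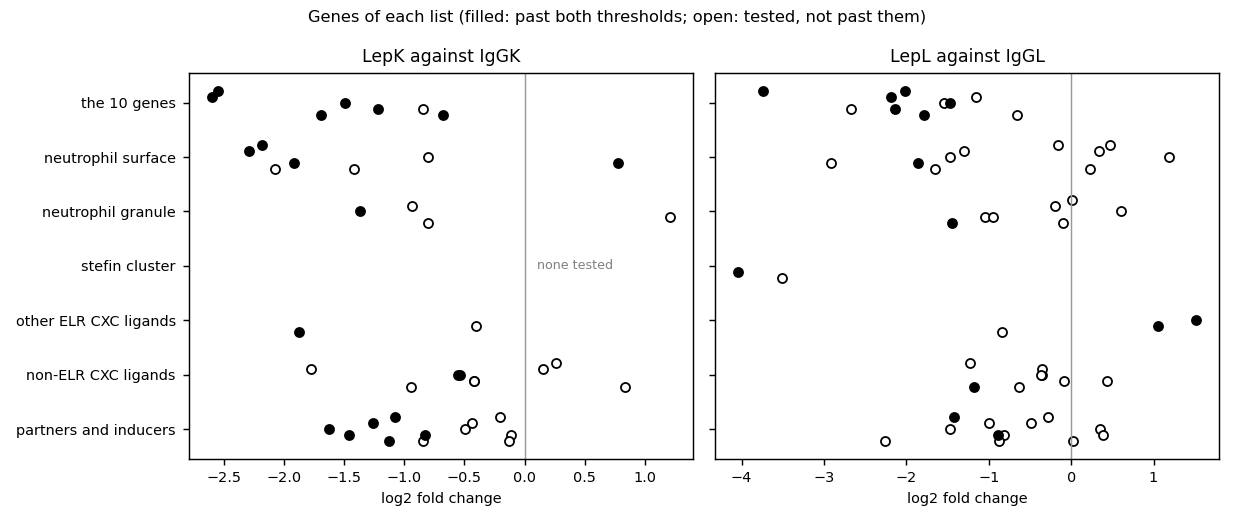
Log2 fold changes under the antibody of the 10 genes and of 6 lists, in kidney (left) and lung (right), filled where both thresholds were passed. *Hdc* is the only filled gene above 0 in kidney, and *Cxcl15* and *Ppbp* are the only ones in lung.

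Markers of other cells moved as well. Of all genes tested, 21.7% were called higher and 15.6% lower in IgGK against WTK. The shares were 4.38% and 5.99% in LepK against IgGK, and 1.78% and 2.36% in LepL against IgGL. In kidney 7 of 9 macrophage and monocyte markers rose in IgGK and 6 fell in LepK, and their summed level was 253 to 289 CPM in WTK, 1711 to 2161 CPM in IgGK and 655 to 932 CPM in LepK. All 5 markers of injured tubule rose in IgGK and fell in LepK, with sums of 11 to 17.3, 541 to 586 and 230 to 326 CPM. All 3 proximal tubule markers went the other way. The part of these cells in the kidney results of the 10 genes was not tested. In lung none of the 9 macrophage and monocyte markers was called in LepL against IgGL, 8 of the 9 had negative log2 fold changes as the 10 genes did, and the list median was -0.34. Their summed level was 3551 to 6660 CPM in IgGL and 8013 to 8279 CPM in LepL, most of it from *Lyz2* (lysozyme, also made by alveolar type 2 cells) at 2203 to 5325 and 6978 to 7375 CPM. Without *Lyz2* the sum of the other 8 was lower in LepL, at 790.1 to 1126 CPM against 1335 to 1561 CPM. Their part in the lung results was not tested. The sum of 3 alveolar type 2 markers was higher in LepL, at 15113 to 20568 against 5605 to 10421 CPM, and 2 of the 3 were called higher.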

How the data were processed

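RNA-seq libraries (poly(A)-enriched, non-directional, sequenced by Novogene) of 9 kidneys and 6 lungs were used, with 1 library taken as 1 mouse, so that p-values measure the spread between these libraries. The authors deposited whole-number read counts per gene, FPKM values (scaled by gene length, not used for tests) and gene lengths. The aligner and counter are not given in the sources used here, and the submitters' processing notes name DESeq2 and GRCm39. In each library more genes had a count of 2 than of 1, so counts need not be separate fragments, and counting error is then larger than the counts alone would give. The authors' fold changes, p-values and group means were not used.

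Counts were analysed in R 4.3.3 with edgeR 4.0.16 (filterByExpr with minimum count 10 and minimum total count 15, TMM scaling, quasi-likelihood test with Benjamini-Hochberg adjustment over all genes tested), fitted to the 9 kidney libraries, to the 6 lung libraries, and to the 12 libraries of injured organs for kidney minus lung. Calls needed an adjusted p under 0.05 and a log2 fold change above 0.5 in size (kidney minus lung: the p alone). Alternatives were RLE or no scaling, no filter, a mean of at least 1 CPM, DESeq2 1.42.0, other thresholds, other sets of samples, a replicate block and each library left out. The fit was tested on simulated data. The genes, lists and tests were chosen with earlier results of these data known. Named are all 10 genes, with each list the genes called in at least 1 comparison that had its highest or lowest log2 fold change, and the 5 genes most correlated with *S100a9* and with *Cxcl1*. Promoters came from RefSeq (GRCm38.p6) and transcripts from GENCODE vM21. Protein sequences were not used here.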

Additional observations from a re-analysis of the deposited data

How the results depend on the processing

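The number of the 10 genes called in the comparisons of IgGK and of LepK with WTK stayed within 1.5 times the reported count in all alternatives. In LepK against IgGK, leaving out single libraries gave 2 to 5 called genes in place of 6, and the other alternatives gave 5 to 7. In LepL against IgGL it gave 0 to 9 called genes in place of 6. With a replicate block the lung comparison gave 0 called genes, and the block changed no other call of the 10 genes. The replicate numbers are not known to pair the mice: the correlations of same-numbered libraries' deviations from their group means ranged from -0.111 to 0.279, and 2 to 4 of 6 libraries correlated best with their own number. Kidney minus lung gave 1 called gene, *Cxcl2*, with no filter on low counts, and 0 otherwise. Without single libraries, the log2 fold change of *S100a9* in LepK against WTK ranged from -0.57 to 0.97, that of *Cxcl2* in LepL against IgGL from -3.19 to 0.10, and the kidney minus lung difference of *Cxcl2* from -0.95 to 2.37. The cause was not tested. With library size as the only scaling, the median log2 fold change of all genes in IgGK against WTK was 0.48, against 0.04, and the calls over all genes were 7803 higher and 1178 lower, against 4253 and 3057. In LepK against IgGK the same scaling gave a median of -0.19, with 408 genes higher and 2185 lower against 858 and 1174. In the 4 comparisons of groups it changed no direction and no call of the 10 genes. In LepL against IgGL, DESeq2 called 1204 genes higher and 1090 lower, against 349 and 463 in edgeR, and the fit with the replicate block called 1 and 3. The lung fit of listed genes without IgGL replicate 3, the marker sum without *Lyz2* and the levels per transcript length were chosen after seeing the data. In kidney, levels under about 1 CPM rest on few counts. These were *Cxcr2*, *Trem1*, *Retnlg* and *Cstdc4* in each group, and *Cxcl2* and *Cxcl5* in WTK. They also include *S100a8* in WTK and LepK, and *S100a9* in WTK and in LepK replicates 1 and 2.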

Other observations

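Over the 15 libraries, with log2 CPM centred within each organ, the genes most like *S100a9* among 16462 genes were *Slc36a4* (r = 0.919), *Clec4e* (0.915), *Ikbip* (0.908), *Cyfip1* (0.907) and *Sash1* (0.904). *Clec4e* encodes the myeloid receptor Mincle. Those most like *Cxcl1* were *Itpr3* (0.986), *Arhgap36* (0.979), *Rhou* (0.979), *Shc2* (0.977) and *Myof* (0.977). The points share libraries and group means, so the values are descriptions.

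Of 3 tested eosinophil markers none was called in LepL against IgGL, with a median log2 fold change of 0.93, and none of 3 B cell markers (median 0.90) or 3 T cell markers (median 0.61) was called. In kidney 2 of 3 eosinophil markers and 3 of 3 T cell markers rose in IgGK, where 21.7% of all genes were called higher. In LepK 1 T cell marker and no eosinophil marker fell, where 5.99% of all genes were called lower. The eosinophil marker *Siglecf* had no count in WTK and passed the filter only through the injured groups, so these counts are descriptions. Of 4 platelet markers tested in lung 2 rose in LepL, 1 of them *Ppbp*, where 1.78% of all genes were called higher. All 3 red cell markers rose in LepK against IgGK (4.38% of all genes were called higher), with a median log2 fold change of 1.33, while none was called in lung. Alveolar type 1 markers had a median of 0.39 in lung, with none of 3 called.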
